A study of Mus musculus with 22 samples.

Results

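Integrins are the receptors by which cells hold on to the matrix around them. Of the 20206 genes in the authors' tables, 10 were followed here by their symbols: Itga1, Itga2, Itga11, Itga6, Itga5, Itga8, Itgav, Itgb1, Itgb3 and Itgb5. All 10 were present in all 3 tables. The samples came from mouse cell lines that carry Col2.3GFP, a transgene which places green fluorescent protein under a piece of the promoter of type I collagen and so lights up cells of the osteoblast lineage. Sorted ESC-OB GFP+ cells (3 samples) were the GFP-positive fraction of osteoblast cultures grown from Col2.3GFP embryonic stem cells, ESC-OB (3 samples, passages 20 to 30) were such cultures unsorted, and ESC (3 samples, passages 20 to 30) were the undifferentiated stem cells. iPSC-OB (2 samples) and iPSC (2 samples) were the matching cultures and stem cells of a Col2.3GFP line of induced pluripotent stem cells, both at passages 10 to 20. All 3 kinds of differentiated culture passed through 6 days as embryoid bodies, in retinoic acid (0.1 µM) between days 3 and 5, and were taken in osteogenic medium at 35 to 40 days. The labels do not tell whether replicates were separate cultures, and the p-values cover the spread between libraries, which may be technical.

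An integrin is a pair of an alpha and a beta chain, each crossing the membrane, and the pairing sets the ligand. The beta1 chain, encoded by Itgb1, pairs with most alpha chains here: alpha1, alpha2 and alpha11 then bind collagens, alpha6 binds laminins, and alpha5 and alpha8 bind proteins that carry the arginine-glycine-aspartate (RGD) motif, fibronectin for alpha5 and nephronectin among those for alpha8. The alphav chain (Itgav) pairs with beta1, beta3 (Itgb3) and beta5 (Itgb5) and binds vitronectin, osteopontin, bone sialoprotein and latent TGF-beta. In bone, osteoblasts attach to collagen and fibronectin largely through beta1 integrins, and alphav-beta3 is best known as the receptor of osteoclasts.

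The sequences upstream of 3 of the genes are shown because they belong to the largest rise among these 10 genes (Itga8), to the largest rise among the collagen receptors (Itga11), and to the beta chain whose change was larger in the sorted cells (Itgb5). Each run holds the 250 bases before the RefSeq transcription start (build GRCm38.p6), read 5′ to 3′ on the gene's own strand. Capitals mark matches, on either strand, to the letters searched: TGANTCA (AP-1), GGGCGG (the GC box), GGAATG (TEAD) and TGTGGT (RUNX). No match of one motif overlapped a match of another. The Itga8 run lies at chr2:12301945-12302194 on the minus strand, the Itga11 run at chr9:62677605-62677854 on the plus strand and the Itgb5 run at chr16:33829415-33829664 on the plus strand.
Itga8: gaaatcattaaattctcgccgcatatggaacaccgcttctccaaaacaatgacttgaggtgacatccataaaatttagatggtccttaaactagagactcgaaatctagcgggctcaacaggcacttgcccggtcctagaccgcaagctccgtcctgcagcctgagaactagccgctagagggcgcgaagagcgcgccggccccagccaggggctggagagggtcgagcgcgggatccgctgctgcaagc
Itga11: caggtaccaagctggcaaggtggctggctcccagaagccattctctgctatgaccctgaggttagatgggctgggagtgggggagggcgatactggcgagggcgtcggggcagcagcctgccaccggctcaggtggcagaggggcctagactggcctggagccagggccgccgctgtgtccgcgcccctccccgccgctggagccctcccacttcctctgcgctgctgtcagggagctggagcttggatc
Itgb5: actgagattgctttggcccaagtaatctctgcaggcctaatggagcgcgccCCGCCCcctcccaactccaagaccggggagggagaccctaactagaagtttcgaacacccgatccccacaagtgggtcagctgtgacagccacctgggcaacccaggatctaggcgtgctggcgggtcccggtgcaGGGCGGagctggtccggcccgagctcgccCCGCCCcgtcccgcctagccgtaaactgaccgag
The Itga8 and Itga11 runs held none of these letters. The Itgb5 run held 3 GC boxes, which start 199, 63 and 34 bases before the start site. Of 10 members 8 had a promoter in the RefSeq table. A GC box was found in 3 of the 8 (Itga5, Itgb1 and Itgb5), against 32.7% of 32851 promoters of the same length, and the TEAD letters in 1 of 8 (Itgb1), against 12.6%. The AP-1 and RUNX letters were found in none of the 8, against 6.75% and 14.0% of all promoters. GC made up 56.4% of the Itga8 run, 68.4% of the Itga11 run and 65.2% of the Itgb5 run, against a median of 52.4%.

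The tables hold the authors' comparisons and no values per sample, so no spread between samples can be shown for a level. Group levels were therefore estimated in CPM (reads per 1000000 in the group, without Rn45s) from each gene's base mean and fold changes. The libraries behind the fits were estimated at 22.4 to 30.1 M reads in sorted GFP+ cells, 6.72 to 11.5 M in ESC-OB cultures, 4.49 to 19.5 M in ESC, 10.1 to 17.7 M in iPSC-OB and 10.4 to 13.0 M in iPSC, where the fit seems to hold 3 libraries against 2 in the labels. An ordinary and an ultra-low-input library kit were used, and the labels do not tie kits to samples. A level of 3 reads in a whole group, taken as the floor, was 0.0406 CPM for sorted GFP+, 0.113 for ESC-OB, 0.108 for ESC, 0.114 for iPSC-OB and 0.0898 for iPSC, counting error only. The labelled cell types were checked on markers. The 8 pluripotency markers summed to 30.0 CPM in sorted GFP+, 38.8 in ESC-OB and 6001 in ESC, and to 52.6 CPM in iPSC-OB and 3273 in iPSC. Of 10 osteoblast markers 9 rose in sorted GFP+ and 7 each in ESC-OB and iPSC-OB, while Alpl, alkaline phosphatase, fell in all 3. Over all tested genes 39.1%, 38.6% and 26.1% rose and 32.4%, 31.0% and 23.1% fell in sorted GFP+, ESC-OB and iPSC-OB. Sp7 (osterix) stood at only 2.33 CPM in sorted GFP+, 0.737 in ESC-OB and 0.623 in iPSC-OB, and Bglap (osteocalcin, which has a near-identical copy) at 0.536, 0.830 and 1.16 CPM in the same groups. In such bulk libraries, fewer cells of a type and less RNA per cell cannot be told apart.

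**Figure D1:**
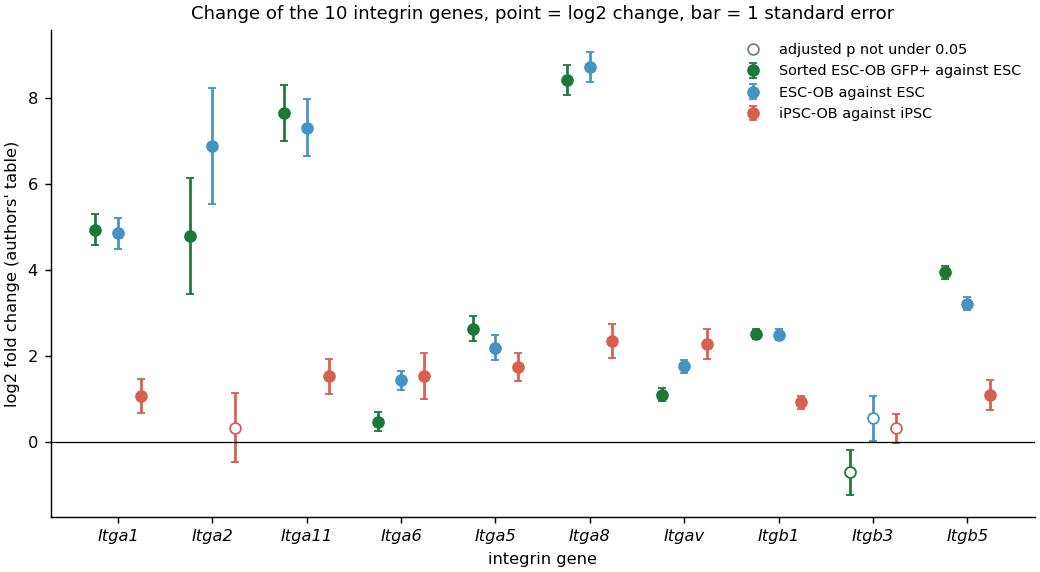
Log2 fold change (vertical axis) of each integrin gene (horizontal axis) in sorted ESC-OB GFP+ against ESC, ESC-OB against ESC and iPSC-OB against iPSC, as points with bars of 1 standard error. Open points have an adjusted p that is not under 0.05. Itga8 has the highest point in each comparison, at 8.42, 8.71 and 2.35, and all 3 points of Itgb3 are open.

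Nearly all of these matrix receptors were more abundant after differentiation of the ESC. Sorted ESC-OB GFP+ against ESC and ESC-OB against ESC each had 9 of 10 members rising and none falling (the authors' adjusted p under 0.05). Over all genes tested 39.1% rose and 32.4% fell (71.5% in either direction) in the sorted comparison, and 38.6% rose and 31.0% fell (69.6%) in the unsorted one. The members' median log2 change was 3.30 in sorted GFP+ cells and 2.86 in ESC-OB, beside medians of 0.28 and 0.26 over all genes tested. The 2 comparisons share their ESC libraries. All fold changes, standard errors (after each ± sign) and adjusted p in what follows, other than those of differences, are from the authors' deposited table, a DESeq2 analysis by its column names.

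The collagen receptor chains were low in ESC, between 0.0297 and 2.19 CPM. Itga11, which encodes a collagen receptor of fibroblast-like mesenchymal cells, was estimated at 40.2 CPM in sorted GFP+ and 30.4 CPM in ESC-OB, against 0.178 CPM in ESC, about 4.96 reads over that whole group. In the authors' deposited table Itga11 rose by 7.66 ± 0.65 in sorted GFP+ (adjusted p = 3.3e-31) and by 7.31 ± 0.65 in ESC-OB (adjusted p = 2.53e-28). Only 2.58% of tested genes in the sorted comparison, and 3.08% in the unsorted one, had a larger log2 change. Itga1, the alpha chain of a receptor for type IV and other collagens, stood at 75.1 CPM in sorted GFP+ and 67.8 CPM in ESC-OB, against 2.19 CPM in ESC. It rose by 4.94 ± 0.36 and 4.85 ± 0.36 in the authors' deposited table, at adjusted p of 5.64e-43 and 4.57e-41. Itga2, whose product with beta1 binds type I collagen and is best known from platelets and epithelia, stayed rare, at 0.920 CPM in sorted GFP+ and 3.76 CPM in ESC-OB. Its ESC level was under the floor, so sorted GFP+ cells had at least 8.53-fold and ESC-OB at least 34.8-fold more, with 3 reads over the ESC group as the limit. Its fitted rises, 4.79 ± 1.35 and 6.88 ± 1.35 in the authors' deposited table, passed (adjusted p = 6.63e-04 and 7.76e-07) and are no bounds.

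The RGD-binding chains rose to very different degrees. Itga8 was estimated at 292 CPM in sorted GFP+ and 345 CPM in ESC-OB, against 0.765 CPM in ESC. In the authors' deposited table it rose by 8.42 ± 0.34 in sorted GFP+ (adjusted p = 5.96e-131) and by 8.71 ± 0.34 in ESC-OB (adjusted p = 9.73e-140), and 1.75% and 1.31% of tested genes had a larger change. The alpha8 chain is known from smooth muscle, kidney mesangial and other mesenchymal cells, and the 6 smooth muscle markers summed to 1164 CPM in sorted GFP+, 527 in ESC-OB and 37.7 in ESC, with none under the floor. The 8 epithelial markers summed to 5433, 2497 and 556 CPM in the same groups. Cdh1 (391 CPM) and Epcam (99.1 CPM) made up most of the ESC sum. The 6 cardiac markers summed to 428, 2252 and 11.1 CPM in these groups, where Actc1 was under the floor in ESC. The part of these cell types in the rises was not tested. Itga5, the alpha chain of the main fibronectin receptor, stood at 183 CPM in sorted GFP+ and 130 CPM in ESC-OB, against 26.3 CPM in ESC. It rose by 2.64 ± 0.30 and 2.20 ± 0.30 in the authors' deposited table, at adjusted p of 2.24e-18 and 5.42e-13. Itgav was at 147 CPM in sorted GFP+, 225 CPM in ESC-OB and 61.5 CPM in ESC. Its rises of 1.10 ± 0.15 and 1.77 ± 0.15 in the authors' deposited table were past the threshold (adjusted p = 1.2e-12 and 3.82e-30), but 37.1% and 28.2% of tested genes rose further.

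In these 2 comparisons the laminin receptor chain had the smallest change among the alpha chains. Itga6 was at 210 CPM in sorted GFP+, 392 CPM in ESC-OB and 135 CPM in ESC. In ESC-OB it rose by 1.44 ± 0.22 (adjusted p = 2.21e-10), and in sorted GFP+ by 0.48 ± 0.22 (adjusted p = 0.0423), both from the authors' deposited table. The sorted call of Itga6 was lost when fold changes were centred on the median gene, which lay at 0.21 (0.27 after centring, adjusted p = 0.267; range over its alternatives 0.0358 to 0.267).

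Of the beta chains, Itgb1 and Itgb5 rose and Itgb3 did not pass. Itgb1, the common partner, was at 1039 CPM in sorted GFP+ and 985 CPM in ESC-OB, against 163 CPM in ESC, and rose by 2.52 ± 0.13 and 2.50 ± 0.13 in the authors' deposited table, at adjusted p of 6.38e-87 and 4.5e-85. Itgb5 was at 580 CPM in sorted GFP+ and 336 CPM in ESC-OB, against 33.6 CPM in ESC. Its rises were 3.95 ± 0.15 (adjusted p = 5.28e-143) and 3.22 ± 0.15 (adjusted p = 2.69e-94) in the authors' deposited table. Itgb3 stayed low, at 4.26 CPM in sorted GFP+, 9.74 CPM in ESC-OB and 6.17 CPM in ESC. Its changes of -0.69 ± 0.52 and 0.56 ± 0.52 in the authors' deposited table did not pass (adjusted p = 0.223 and 0.34), with 95% intervals of -1.71 to 0.33 and -0.47 to 1.58. Measured against their common partner, the collagen chain Itga11 changed 5.14 log2 units more than Itgb1 in sorted GFP+ and 4.81 more in ESC-OB, and Itga8 5.90 and 6.22 more. Relative to Itgb1, Itga5 lay at 0.12 in sorted GFP+ and -0.30 in ESC-OB, and Itga6 at -2.04 and -1.06.

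**Figure D2:**
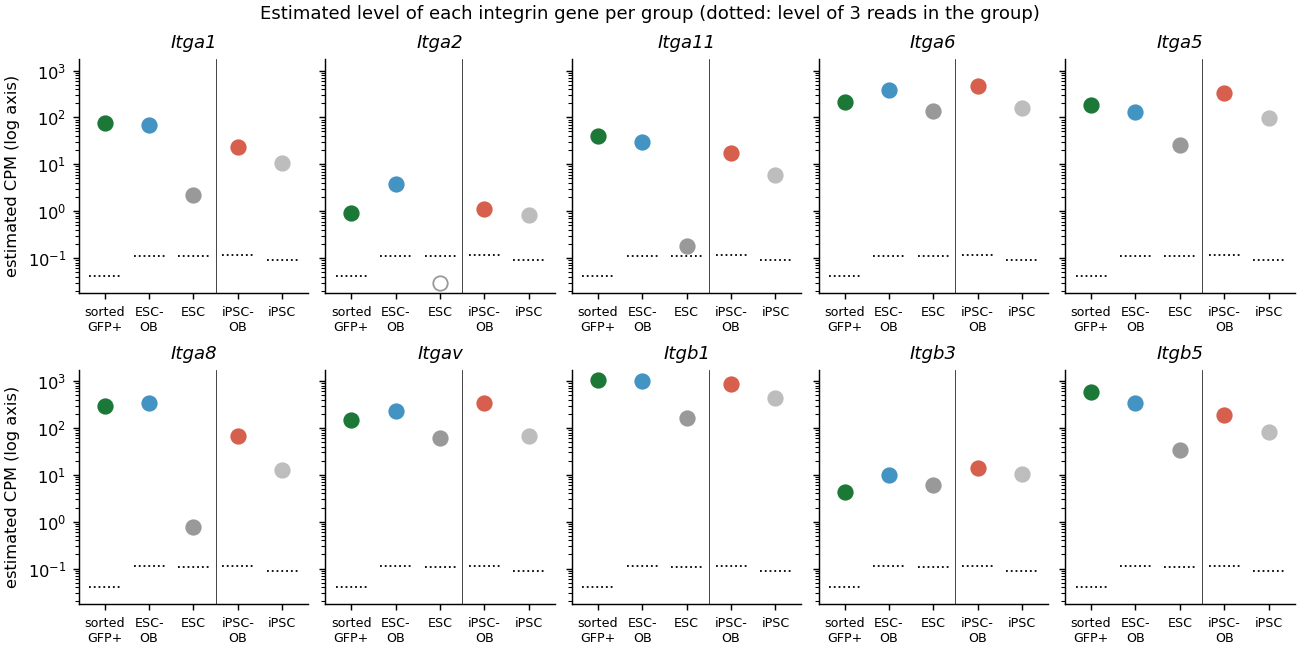
Estimated level in CPM (log axis) of each integrin gene in sorted GFP+, ESC-OB, ESC, iPSC-OB and iPSC, with dotted lines at the level of 3 reads in the group. The ESC and iPSC groups were normalised in separate fits, the values have no spread between samples, and the open circle of Itga2 in ESC, 0.0297 CPM, lies under its line.

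Transcript length was used to set the genes against one another. Per kb of the longest protein-coding transcript in GENCODE vM21, Itgb1 was the most abundant member in all 5 groups, at 272 CPM per kb in sorted GFP+, 258 in ESC-OB, 42.6 in ESC, 228 in iPSC-OB and 116 in iPSC. Itga2 was the lowest in all 5. Among the 3 beta chains, Itgb5 made up 39.3% of the summed level per kb in sorted GFP+ and 28.2% in ESC-OB, against 19.0% in ESC. It made up 19.6% in iPSC-OB and 17.8% in iPSC. Itgb3 made up 0.164% in sorted GFP+ and 2.0% or less in every other group. Among the 7 alpha chains, Itga6 supplied 27.5% in sorted GFP+ and 40.5% in ESC-OB, against 67.4% in ESC. Itga8 supplied 28.4% and 26.4%, against 0.284% in ESC. In the iPSC cultures Itga8 supplied 4.58% in iPSC-OB and 3.02% in iPSC, and Itga6 44.0% and 50.7%. With the union of all exons as the length, Itga6 came to 18.5%, 29.4% and 56.9% of the alpha level in sorted GFP+, ESC-OB and ESC. The order of Itga6 and Itga8 in ESC-OB then turned round. In the iPSC fit Itga6 then came to 31.9% in iPSC-OB and 37.6% in iPSC, below Itga5 at 40.5% and 41.3%, although per longest transcript Itga5 stood at 30.0% in both groups, below Itga6. The order of the leading alpha chains thus depends on the length used, and they are not ranked.

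**Figure D3:**
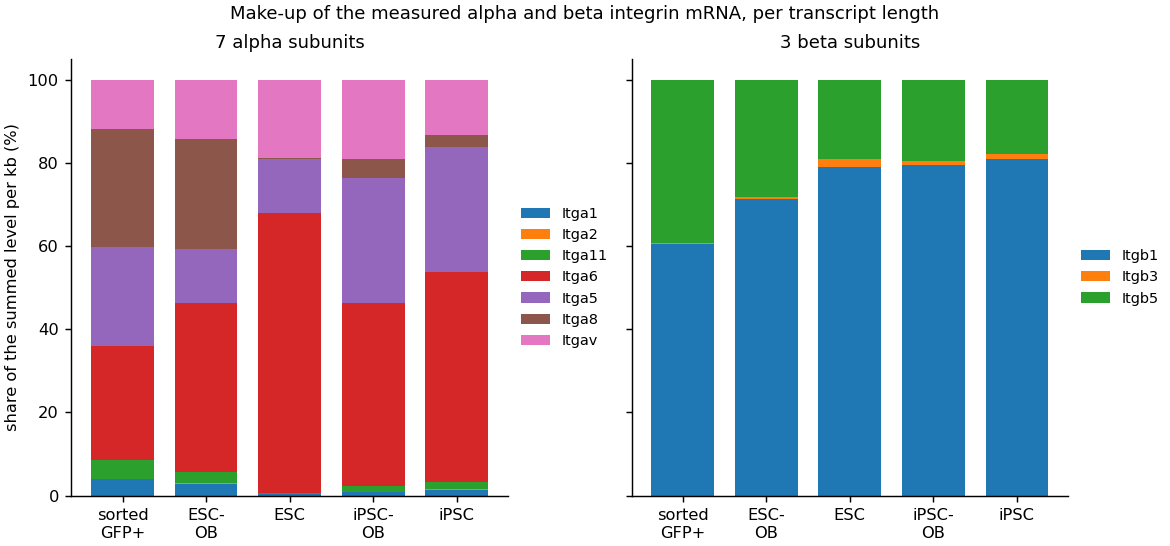
Share (%) of each of the 7 alpha and 3 beta chains in their summed level per kb of transcript, in sorted GFP+, ESC-OB, ESC, iPSC-OB and iPSC. Itga8 fills 28.4% and 26.4% of the alpha bars of sorted GFP+ and ESC-OB, and Itgb5 takes 39.3% of the beta bar of sorted GFP+.

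The sorted and the unsorted change were then set against each other, which puts sorted cells with an active collagen reporter beside the whole culture. These groups also differed in the sorting itself and in depth (22.4 to 30.1 M reads against 6.72 to 11.5 M). Kits are not tied to samples. Reporter activity cannot be told apart from these here. Differences were tested by a two-sided z test on the deposited values with Benjamini-Hochberg adjustment over 19781 genes. Of 10 members 3 differed, 1 higher and 2 lower in the sorted change, against 10.7% of all genes higher and 12.1% lower (22.7% in either direction), so the count is no result about these receptors as a set. Itgb5 was 0.73 ± 0.22 log2 units higher in sorted GFP+ (adjusted p = 0.00546), with 580 CPM in sorted GFP+ and 336 CPM in ESC-OB. Itga6 was lower, at -0.96 ± 0.31 (adjusted p = 0.012), and so was Itgav, at -0.66 ± 0.22 (adjusted p = 0.0117). Itgb1 (0.02 ± 0.18, 95% interval -0.33 to 0.37), Itga1 (0.09 ± 0.50) and Itga8 (-0.30 ± 0.49, interval -1.25 to 0.65) did not pass, which leaves changes of those sizes undecided. Itga5 was at 0.44 ± 0.42, Itga11 at 0.35 ± 0.92 and Itga2 at -2.09 ± 1.90, none of them passing. Itgb3 was at -1.25 ± 0.74 (adjusted p = 0.256), and passed when the 2 changes were given a correlation of 0.5 for their shared ESC libraries (adjusted p = 0.0469; range over its alternatives 0.0469 to 0.256).

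Ligand genes were looked up in the same test, in which 10.7% of all genes were higher and 12.1% lower. Of 10 laminin genes 4 were lower in the sorted change and none higher, Lama1 by -1.90 ± 0.50 and Lamc1 by -1.73 ± 0.45 among them (adjusted p = 0.00138 and 0.00123), together with Lamb1 (-1.21 ± 0.47, adjusted p = 0.0473) and Lama5 (-0.86 ± 0.21, adjusted p = 4.71e-04). These encode chains of the laminins of basement membranes, which alpha6 integrins bind. Of 14 genes for RGD-type ligands 2 were higher and 2 lower (14.3% each), near the shares of all genes. That count is no result about this list. Fn1, fibronectin, was at -1.18 ± 0.23 and Fbn1, fibrillin-1, at -1.34 ± 0.49 (adjusted p = 4e-06 and 0.03), while Spp1, osteopontin, was at 1.18 ± 0.44 and Cyr61, a matricellular protein, at 1.13 ± 0.30 (adjusted p = 0.0341 and 0.00143). Of 10 collagen genes 1 was lower, Col4a2 of the type IV collagens (-1.31 ± 0.49, adjusted p = 0.0368), which is also near the share of all genes. Marker genes were set beside the same shares. Of 10 osteoblast markers 1 was higher in the sorted change, Dmp1 (3.00 ± 1.02, adjusted p = 0.0173), and none lower. Col1a1, of type I collagen, did not pass (1.08 ± 0.45, adjusted p = 0.0663). Summed, these 10 came to 11223 CPM in sorted GFP+ and 5257 CPM in ESC-OB. Most of this was type I collagen, whose promoter drives the reporter used for sorting. Col1a1 stood at 5702 and 2587 CPM and Col1a2 at 4572 and 2434 CPM in these groups. Runx2 (16.8 and 25.5 CPM), Phex (5.53 and 7.86) and Bglap (0.536 and 0.830) were lower in sorted GFP+, and the others were higher. The 6 cardiac markers summed to 428 CPM in sorted GFP+ and 2252 CPM in ESC-OB, with 3 of 6 lower, and the 8 endothelial markers to 146 CPM and 278 CPM, with 1 of 8 lower. The 8 epithelial markers summed to 5433 CPM in sorted GFP+ and 2497 CPM in ESC-OB, with 4 of 8 higher, and the 6 smooth muscle markers to 1164 CPM and 527 CPM, with 1 of 6 higher. The osteoblast, endothelial and smooth muscle counts lay near the shares of all genes and are no result about those lists. The part of all these cells in the integrin differences was not tested.

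**Figure D4:**
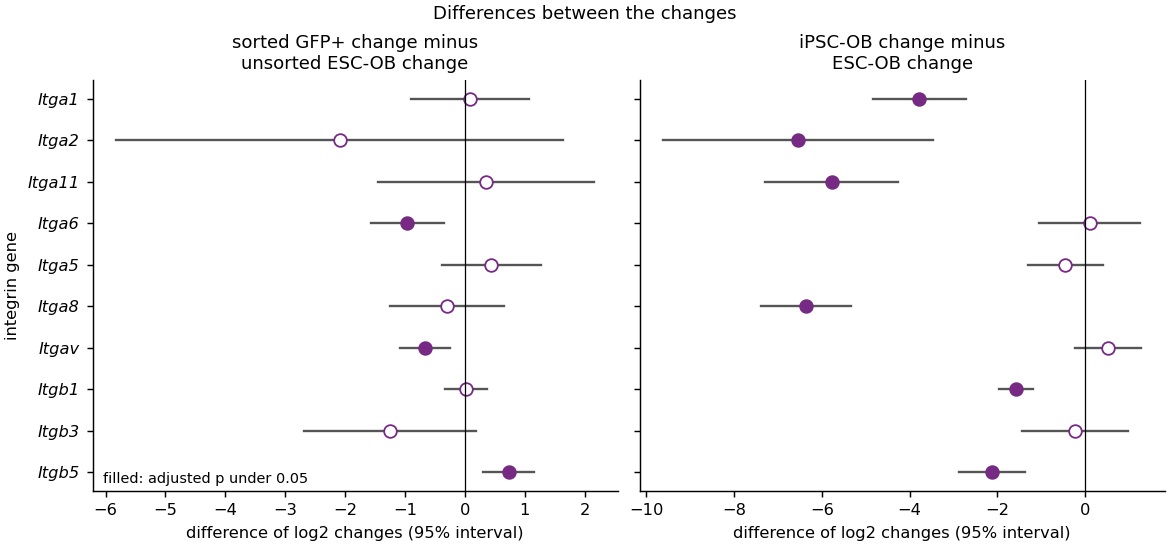
Difference of log2 changes (horizontal axis, with 95% intervals) for each integrin gene, in sorted GFP+ minus unsorted ESC-OB (left) and in iPSC-OB minus ESC-OB (right), where filled points have an adjusted p under 0.05. On the left Itgb5 is filled at 0.73 above 0 and Itga6 and Itgav at -0.96 and -0.66, and on the right 6 points are filled, Itga8 at -6.37 among them. The Itga2 point on the right, -6.54, rests on an ESC level under the floor.

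In the iPSC cultures most of these receptors rose too, with a lower median. In iPSC-OB against iPSC 8 of 10 members rose and none fell, where 26.1% of all tested genes rose and 23.1% fell (49.2% in either direction), and the members' median was 1.32 beside 0.15 over all genes tested. Itga8 had the largest rise of the members, 2.35 ± 0.40 in the authors' deposited table, at adjusted p of 2.5e-08, with 66.9 CPM in iPSC-OB and 12.7 CPM in iPSC. Itgav rose by 2.28 ± 0.35 (adjusted p = 8.93e-10), at 339 CPM in iPSC-OB and 67.5 CPM in iPSC. Itga5 rose by 1.75 ± 0.32 (adjusted p = 2.9e-07) in the authors' deposited table, at 331 CPM in iPSC-OB and 95.1 CPM in iPSC. Itga6 rose by 1.54 ± 0.54 and Itga11 by 1.53 ± 0.41 in the authors' deposited table, at adjusted p of 0.0107 and 6.13e-04, and Itga11 stood at 17.5 CPM in iPSC-OB and 5.85 CPM in iPSC. Itgb5 (1.10 ± 0.35), Itga1 (1.08 ± 0.40) and Itgb1 (0.93 ± 0.15) rose too in the authors' deposited table, at adjusted p of 0.00496, 0.017 and 7.12e-09. Itga2 (0.34 ± 0.81, adjusted p = 0.752) and Itgb3 (0.33 ± 0.34, adjusted p = 0.44) did not pass there. Itgb3 thus missed the threshold in all 3 comparisons.

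The iPSC-OB change was below the ESC-OB change for 6 of 10 members and above it for none, against 17.2% of 18632 shared genes lower and 11.0% higher, or 28.2% in either direction (the same z test). Itga8 and the collagen receptor chains were among them. Itga8 was at -6.37 ± 0.52, Itga11 at -5.78 ± 0.77 and Itga1 at -3.78 ± 0.54 (adjusted p = 2.21e-31, 2.82e-12 and 7.07e-11). Itga2 was at -6.54 ± 1.57 (adjusted p = 2.72e-04), from an ESC level under the floor. With that level set to the floor of 3 reads the Itga2 difference was -4.78, so it is not ranked among the others. The beta chains Itgb5, at -2.12 ± 0.39, and Itgb1, at -1.56 ± 0.20, were lower too (adjusted p = 6.75e-07 and 1.61e-13). Itga6 (0.10 ± 0.58), Itga5 (-0.45 ± 0.44), Itgav (0.52 ± 0.38) and Itgb3 (-0.23 ± 0.62) did not pass, with 95% intervals of -1.04 to 1.25, -1.31 to 0.41, -0.24 to 1.27 and -1.45 to 0.99. The authors' folds look shrunken towards 0, with standard errors that level off at 1.29 in the iPSC table and 1.89 in both ESC tables, and the part of this shrinkage in the differences was not tested.

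The estimated levels on both sides of each comparison are set beside each other here. The tables were normalised separately, so these levels carry no test. They were also computed from the folds that look shrunken towards 0, and the part of this shrinkage in the levels was not tested. Itga8 was estimated at 66.9 CPM in iPSC-OB and 345 CPM in ESC-OB, and at 12.7 CPM in iPSC and 0.765 CPM in ESC. Itga11 was at 17.5 CPM in iPSC-OB and 30.4 CPM in ESC-OB, and at 5.85 CPM in iPSC and 0.178 CPM in ESC. Itga1 was at 23.5 CPM in iPSC-OB and 67.8 CPM in ESC-OB, and at 10.8 CPM in iPSC and 2.19 CPM in ESC. In each of these genes the iPSC level was above the ESC level and the iPSC-OB level below the ESC-OB level. Itgb1 was at 870 CPM in iPSC-OB and 985 CPM in ESC-OB, and at 441 CPM in iPSC and 163 CPM in ESC, with the wider gap between the stem cells. Itga5 was higher on both sides in the iPSC fit, at 331 CPM in iPSC-OB and 130 CPM in ESC-OB, and at 95.1 CPM in iPSC and 26.3 CPM in ESC. Stem cell levels were closer for Itgav, at 67.5 CPM in iPSC and 61.5 CPM in ESC, and for Itga6, at 158 CPM in iPSC and 135 CPM in ESC. Their culture levels were 339 CPM (Itgav) and 477 CPM (Itga6) in iPSC-OB, and 225 CPM and 392 CPM in ESC-OB.

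Collagen genes, which encode ligands of these receptors, differed in the same direction. All 10 collagen ligand genes had a lower change in iPSC-OB than in ESC-OB, where 17.2% of all shared genes were lower and 11.0% higher. Among them Col1a2 differed by -9.84 ± 0.69 and Col5a2 by -8.69 ± 0.62 (adjusted p = 9.18e-43 and 1.32e-41). Col1a2 was at 314 CPM in iPSC and 0.669 CPM in ESC. The 10 osteoblast markers summed to 2877 CPM in iPSC-OB and 5257 CPM in ESC-OB. They summed to 846 CPM in iPSC and 323 CPM in ESC, of which Alpl made up 113 CPM and 308 CPM. Col1a1 made up 405 CPM and Col1a2 314 CPM of the iPSC sum, against 10.3 and 0.669 CPM in ESC. In iPSC-OB these 2 genes stood at 1283 and 1205 CPM, and in ESC-OB at 2587 and 2434 CPM. Of the remaining markers Pth1r was the highest in iPSC, at 5.30 CPM. The 6 smooth muscle markers summed to 982 CPM in iPSC-OB and 527 CPM in ESC-OB, and to 427 CPM in iPSC and 37.7 CPM in ESC, with none under the floor in any of these groups. The changes of 4 of these 6 were lower in iPSC-OB than in ESC-OB. The 6 cardiac markers summed to 401 CPM in iPSC-OB and 2252 CPM in ESC-OB, and to 26.6 CPM in iPSC and 11.1 CPM in ESC, with 4 of 6 lower and a median difference of -3.74. The 8 epithelial markers summed to 1961 CPM in iPSC-OB and 2497 CPM in ESC-OB. In the stem cells they summed to 1293 CPM in iPSC and 556 CPM in ESC. Most of those was Cdh1 (646 and 391 CPM) and Epcam (285 and 99.1 CPM). Krt14 stood at 1.37 and 0.122 CPM and Krt5 at 0.224 and 0.158 CPM there. The changes of 6 of the 8 were lower, with a median difference of -3.06. The 8 endothelial markers summed to 190.3 CPM in iPSC-OB and 278 CPM in ESC-OB. In the stem cells they summed to 56.2 CPM in iPSC and 185 CPM in ESC. Their changes were higher for 2 (Pecam1 and Vwf) and lower for 4. Pecam1 (110 CPM) and Vwf (61.4 CPM) made up most of the ESC sum, while Cdh5, Tie1 and Emcn were under the floor there. The 8 pluripotency markers summed to 3273 CPM in iPSC and 6001 CPM in ESC. Per the labels' protocols, stem cells grew on feeders of mouse embryonic fibroblasts or without feeders, but the labels do not tie this to samples. The part of other cell types in these levels and differences was not tested.

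The 16 other integrin subunits followed mixed courses. In sorted GFP+ 10 of the 15 with an adjusted p rose and 2 fell, in ESC-OB 10 of 15 rose and 1 fell, and in iPSC-OB 6 of 14 rose and 2 fell. Those were 66.7% rising and 13.3% falling in sorted GFP+, 66.7% and 6.67% in ESC-OB, and 42.9% and 14.3% in iPSC-OB. Over all tested genes 39.1% rose and 32.4% fell in sorted GFP+, 38.6% and 31.0% in ESC-OB, and 26.1% and 23.1% in iPSC-OB. Itgb6, an epithelial partner of alphav that activates TGF-beta, had the largest rise in each, by 10.49 ± 1.08, 9.97 ± 1.08 and 7.66 ± 0.85 in the authors' deposited table, at 75.6 CPM in sorted GFP+, 50.6 in ESC-OB and 0.0471 in ESC, and at 19.1 CPM in iPSC-OB and 0.0913 in iPSC. Its ESC level was under the floor. Itgb8, another partner of alphav, rose by 6.46 ± 1.23 and 8.82 ± 1.23 in sorted GFP+ and ESC-OB in the authors' deposited table, also against an ESC level under the floor (0.0392 CPM), and did not pass in iPSC-OB (1.16 ± 0.72, adjusted p = 0.17). Itgb4, the partner of alpha6 in epithelial hemidesmosomes, rose by 4.27 ± 0.20, 4.18 ± 0.20 and 2.02 ± 0.45 in the authors' deposited table, and Itga7, a laminin receptor chain of muscle, by 4.44 ± 0.37, 4.80 ± 0.37 and 2.26 ± 0.38. Itga3, another laminin receptor chain, rose by 3.02 ± 0.26, 3.13 ± 0.26 and 0.89 ± 0.17, and Itga10, a collagen receptor chain of cartilage, by 0.83 ± 0.38 in sorted GFP+ and 2.49 ± 0.38 in ESC-OB in the authors' deposited table, and in iPSC-OB as well (adjusted p = 7.73e-05). Itga10 was the only one of the 16 that differed between the sorted and the unsorted change (-1.66 ± 0.54, adjusted p = 0.0128). The iPSC-OB change was below the ESC-OB change for 7 of the 16 (43.8%) and above it for none. Over all shared genes 17.2% were lower and 11.0% higher. Itgb8 (-7.66, from an ESC level under the floor), Itga7 (-2.54), Itga3 (-2.24) and Itgb4 (-2.17) were among the 7. Lower changes in iPSC-OB were thus not particular to the 10 members.

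Integrin chains known from leukocytes went different ways. Itgal, the alpha chain of LFA-1, fell in all 3 comparisons, with log2 changes of -5.02 ± 0.45 in sorted GFP+, -4.29 ± 0.51 in ESC-OB and -2.91 ± 0.69 in iPSC-OB (the authors' deposited table), and stood at 0.325 CPM in sorted GFP+, 0.519 in ESC-OB and 9.48 in ESC. Itgae, an alpha chain of intraepithelial T cells, fell by 1.41 ± 0.65 in sorted GFP+ (the authors' deposited table, adjusted p = 0.0416). Itgb7, a beta chain of gut-homing lymphocytes, rose by 2.86 ± 0.50 in sorted GFP+ and 1.20 ± 0.50 in ESC-OB, and fell in iPSC-OB (-2.21 ± 0.35, the authors' deposited table). Itgam, the alpha chain of Mac-1, was at 18.6 CPM in sorted GFP+ and 9.62 in ESC-OB. It had no p-value in either ESC comparison, before or after adjustment, at a base mean of 105 (42 genes lacked one before adjustment). How its level was spread over the libraries cannot be seen, so the level may rest on few of them. Itgb2, the common leukocyte beta chain, stood at 1.89 CPM in sorted GFP+, 1.70 in ESC-OB and 0.874 in ESC, and passed in iPSC-OB alone of the 3 tables (1.83 ± 0.57 in the authors' deposited table, adjusted p = 0.00379), although the iPSC-OB and ESC-OB changes were not shown to differ (0.97 ± 0.81, adjusted p = 0.409). Itga2b, the platelet partner of beta3, rose by 2.92 ± 0.60 in sorted GFP+ and 2.61 ± 0.61 in ESC-OB in the authors' deposited table, at 6.15, 4.74 and 0.727 CPM in sorted GFP+, ESC-OB and ESC. Markers of macrophages and osteoclasts, whose alphav-beta3 needs Itgb3, were mixed. Calcr, the calcitonin receptor, and Ocstamp, a fusion protein of osteoclasts, were under the floor in sorted GFP+ and ESC-OB. Csf1r, the receptor of the macrophage growth factor M-CSF, was at 23.1 CPM in sorted GFP+, 32.4 in ESC-OB and 0.105 in ESC, where it was under the floor, and rose by 7.63 ± 0.80 and 8.17 ± 0.80 in the authors' deposited table. Cd68, a macrophage lysosomal protein, was at 48.3, 43.2 and 16.9 CPM in the same groups and rose by 1.35 ± 0.24 and 1.25 ± 0.24 in the authors' deposited table. Acp5, the tartrate-resistant acid phosphatase of osteoclasts, was at 16.3 CPM in sorted GFP+, 7.56 in ESC-OB and 21.8 in ESC. It fell in ESC-OB (-1.63 ± 0.32, adjusted p = 1.08e-06, the authors' deposited table). The listed markers Ptprc and Emr1 were low, at 0.0812 and 0.258 CPM in sorted GFP+ and 0.357 and 0.495 CPM in ESC-OB. Neither passed in sorted GFP+ (adjusted p = 0.336 and 0.051). Both rose in ESC-OB (adjusted p = 0.027 and 0.0107), from ESC levels under the floor. The 5 platelet markers found in the ESC tables, Itga2b included, summed to 16.6 CPM in sorted GFP+, 8.75 in ESC-OB and 0.898 in ESC, and the 8 macrophage and osteoclast markers to 107, 93.8 and 39.5 CPM.

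**Figure D5:**
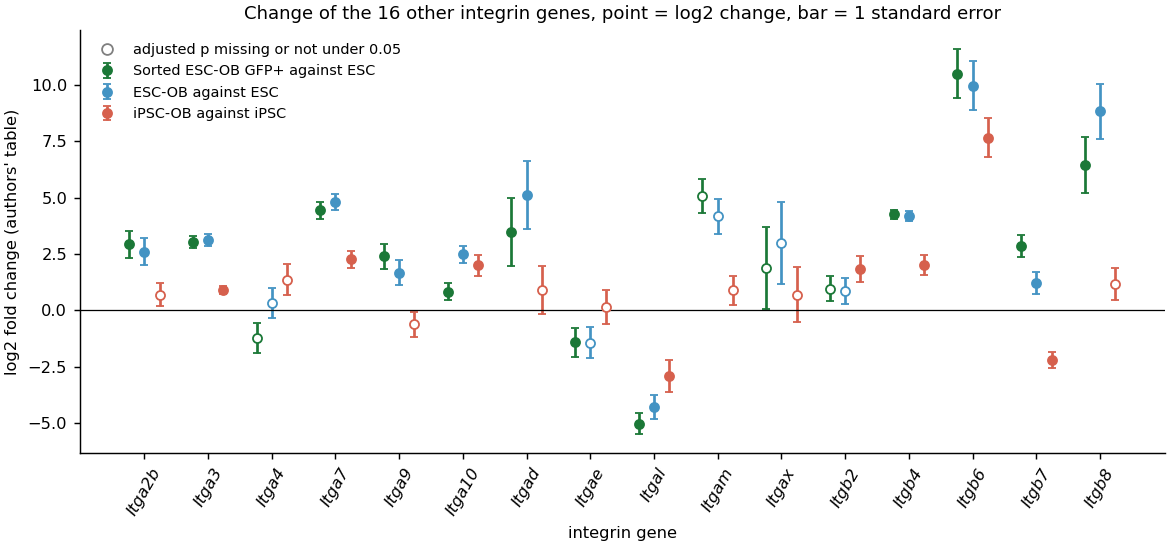
Log2 fold change (vertical axis) of the 16 other integrin genes (horizontal axis) in the 3 comparisons, as points with bars of 1 standard error, where open points have an adjusted p that is missing or not under 0.05. Itgb6 reaches 10.49, 9.97 and 7.66, and Itgal lies below 0 in all 3 comparisons.

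Genes that link integrins to actin changed in both directions. Of 30 genes for integrin activation and focal adhesions, 14 rose and 11 fell in sorted GFP+ (median 0.53), 17 rose and 3 fell in ESC-OB (median 0.70), and 13 rose and 1 fell in iPSC-OB (median 0.59). In sorted GFP+ these were 46.7% rising and 36.7% falling, near the 39.1% and 32.4% of all tested genes, so the sorted count is no result about this list. In ESC-OB 56.7% rose and 10.0% fell, beside 38.6% and 31.0% of all tested genes, and in iPSC-OB 43.3% and 3.33%, beside 26.1% and 23.1%. The largest rises in sorted GFP+ and ESC-OB were those of Tgfb1i1, the focal adhesion protein Hic-5, by 9.22 ± 0.77 and 8.72 ± 0.77, Zyx, zyxin, by 7.01 ± 0.21 and 6.03 ± 0.21, Lims2, an adaptor that binds integrin-linked kinase, by 6.56 ± 0.44 and 5.97 ± 0.44, and Parva, alpha-parvin, by 5.36 ± 0.34 and 5.51 ± 0.34 in the authors' deposited table. In iPSC-OB the authors' deposited table had its largest rises of the 30 at Lims2 (6.52 ± 0.67), Parvb, beta-parvin (3.69 ± 0.57), Tns1, tensin-1 (3.38 ± 0.46), and Parva (2.58 ± 0.22). Tln2, a talin, which switches integrins on, fell in all 3 of the authors' deposited tables, with -2.28 ± 0.17 in sorted GFP+, -0.58 ± 0.17 in ESC-OB and -0.65 ± 0.27 in iPSC-OB. The other talin gene, Tln1, rose in ESC-OB (0.86 ± 0.11) and iPSC-OB (0.88 ± 0.22) in the authors' deposited table. It did not pass in sorted GFP+ (0.01 ± 0.11, adjusted p = 0.951). Tln1 was the more abundant, at 237 CPM in sorted GFP+, 411 in ESC-OB and 211 in ESC, against 16.4, 51.3 and 71.3 for Tln2. Between the sorted and unsorted change 6 of the 30 were higher and 7 lower (20.0% and 23.3%), beside 10.7% and 12.1% of all genes. Parvb differed most (-3.52 ± 0.30, adjusted p = 1.04e-28), at 14.5 CPM in sorted GFP+ and 160 CPM in ESC-OB, followed by Tns3, tensin-3 (-2.06 ± 0.32), Arhgef7, an exchange factor of adhesion sites (-2.04 ± 0.20), and Tln2 (-1.71 ± 0.24). Between iPSC-OB and ESC-OB 2 of the 30 were higher and 8 lower (6.67% and 26.7%), beside 11.0% and 17.2% of all genes. Among the lower were Tgfb1i1 at -6.51 ± 0.82 and Zyx at -5.23 ± 0.38 (adjusted p = 1.21e-13 and 4.76e-40).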

How the data were processed

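Messenger RNA sequencing data of mouse stem cells and of osteoblast cultures grown from them were used as 3 tables of the authors' comparisons. Build mm9, STAR 2.4.2a, R 3.2.2 and DESeq2 are named in the submitters' processing notes, without roles, design formula or counting settings. Per the file headers, the deposited columns were a base mean (a signal, by its DESeq2 name counts over size factors averaged across libraries), a log2 fold change and its standard error, the test score, and p-values before and after adjustment. The score equalled the fold change over its standard error, and the Benjamini-Hochberg method, applied to the p-values, gave back the adjusted ones. The sign of the folds was read from Pou5f1, Nanog and Esrrb, which were strongly negative in all 3 tables. The adjusted p was missing for 1193 (sorted GFP+), 1573 (ESC-OB) and 1478 (iPSC-OB) genes. The ESC tables had identical base means and so came from 1 fit.

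The number and depth of the libraries were recovered from the lowest base means, in which each library adds a whole number of steps, a step being what 1 of its reads is worth. Sets of 9 (ESC) and 5 (iPSC) such values explained all 1159 and 165 distinct base means under 1 (tolerance 1e-09). For iPSC this gave 3 libraries, against 2 in the labels. Group levels were computed from base means, folds and these numbers, and scaled to 1000000 without Rn45s. Differences of changes were tested by a z test that added the variances, which takes the changes as independent. The sorted and unsorted changes share their ESC libraries, so a correlation of 0.5 was used there as an alternative. How well the z test holds for shrunken folds was not tested. Lengths came from GENCODE vM21, which tags 3 members (Itga1, Itga6 and Itga8) as overlapping other loci, and no source used here says whether counting used strand, so reads of overlapping genes may be mixed. Python 3.11.15, scipy 1.17.1 and pandas 2.3.3 were used. The integrin genes, the other gene lists and the tests were chosen with earlier results of these data known. All 10 members were named, every other integrin subunit past the threshold could be, and of other lists the 4 largest changes at a base mean of at least 10 and those moving against the majority. Marker genes could all be named, and Tln1 was added beside Tln2. Calvarial osteoblasts and bone cells were not analysed here.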

Additional observations from a re-analysis of the deposited data

Results flagged for a closer look

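Differences between changes that passed the test are listed here, each with its adjusted p from the z test. The iPSC-OB change lay below the ESC-OB change for Itga8 (-6.37, adjusted p = 2.21e-31), Itga11 (-5.78, 2.82e-12), Itga1 (-3.78, 7.07e-11), Itgb5 (-2.12, 6.75e-07) and Itgb1 (-1.56, 1.61e-13). It also lay below it for Itga2 (-6.54, adjusted p = 2.72e-04), whose ESC level was under the floor of 3 reads, and the difference was -4.78 with that level set to the floor. The sorted GFP+ change lay above the unsorted ESC-OB change for Itgb5 (0.73, adjusted p = 0.00546) and below it for Itga6 (-0.96, 0.012) and Itgav (-0.66, 0.0117). Itgb5 is the only member in both lists, and its sign differs between them: its change was larger in the sorted cells and smaller in the iPSC cultures than in ESC-OB.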

How the results depend on the processing

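No paired analysis was possible because the tables hold no values per sample, and for the same reason no library could be left out. Under a threshold of 0.01, adjustment over every gene with a p-value, a minimum log2 change of 1, centring on the median gene, or a base mean of at least 100, the numbers of members that rose or fell stayed within 1.5 times in all 3 comparisons. At 0.01 the count of members lower in the sorted than in the unsorted change fell to 0, since Itga6 and Itgav lost their call. Itga6 in sorted GFP+ lost its call at 0.01, with a minimum log2 change of 1 and after centring. In iPSC-OB Itga1 and Itga6 lost theirs at 0.01 and Itgb1 with a minimum log2 change of 1. The sorted minus unsorted difference of Itgb1 turned to -0.0499 after centring, a difference that passed under neither setting. The summed level of the 10 members was 2572 CPM in sorted GFP+, 2523 in ESC-OB, 428 in ESC, 2324 in iPSC-OB and 886 in iPSC. With Rn45s kept in the total it was 2315 in ESC-OB, 400.1 in ESC, 2228 in iPSC-OB and 836 in iPSC, and with the label numbers of iPSC samples 2196 in iPSC-OB and 782 in iPSC. The union of exons as length was chosen after seeing the data, as was the floor for Itga2 in ESC, which moved its iPSC-OB minus ESC-OB difference to -4.78. Without values per sample, the precision of group levels is unknown beyond counting error. Group levels also rest on folds that look shrunken towards 0, and the part of this shrinkage in the levels was not tested.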
